A study of Hypsibius dujardini with 126 samples.

Results

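The comparison covers late differentiation in the tardigrade Hypsibius dujardini, from embryos labelled 70 to 79 h to embryos labelled 90 to 99 h. Both groups come from embryos 26-78, an unbroken run of embryo numbers for which the labels name no batch, so the change of run that crosses other parts of the course does not enter. Of the 126 single embryos of the series, 20 carry these labels, and 17 were used. An embryo was used when its counts on transcript models summed to at least 63405 and no single model took more than 10% of them. This kept 8 embryos at 70-79 h (embryos 50 to 57) and 9 at 90-99 h (embryos 69 to 75, 77 and 78). Over the whole series the same limits keep 96 embryos.

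Tardigrades develop directly, without a larval stage. In the late embryo the limbs with their claws, the cuticle, the muscles, the nervous system and the feeding apparatus with its stylets and sucking pharynx take their final form, and a small animal with the adult body plan then hatches. RNA was read with CEL-Seq, which barcodes the 3′ end of polyadenylated RNA from each embryo and amplifies it linearly by transcription in vitro. The embryos came from laboratory cultures, were kept at 20 °C and were frozen singly; the labels name no treatment, strain, genotype or sex, in either group. Time zero is uncertain, since the label is in minutes from fertilization and the culture protocol starts its clock at the 2-cell stage. Hours below are label hours. Nothing in the labels ties an embryo to a mother or clutch. The p-values therefore measure the spread between single embryos, among which there may be siblings. The embryos of a group each have a different label hour, so this spread also includes any change with time inside the group. The files give transcript models by number and do not pair them with gene names, so the results are given as groups of genes, with 4 IDs as examples, and the identity of the tissue could not be checked against markers.

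Total transcript counts ran from 306329 to 2400687 at 70-79 h (median 884964) and from 369809 to 1124678 at 90-99 h (median 733073). Embryo 49 (70 h) was left out on both limits, and embryos 58 (79 h) and 76 (97 h) on the share of 1 model. Embryo 49 had 32609 counts with 72.5% on 1 model, embryo 58 had 76974 with 33.2%, and embryo 76 had 131746 with 27.4%. In all 3 that model was HD_v1_tr_06538, named after its values were seen. In the embryos kept it took 1.20% to 2.74% of counts at 70-79 h and 1.28% to 2.81% at 90-99 h, and no model took more than 5.98% in any of them.

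One library stands apart and is given with and without its contribution below. Embryo 55, labelled 76 h, had a mean Spearman correlation across 12238 genes of 0.391 with the others of its own window and 0.518 with the embryos of 47-59 h. The other 7 embryos of the window averaged 0.556 with each other over 21 pairs. Embryos 50 and 51 averaged somewhat higher with 60-69 h than with their own window (0.508 against 0.486, and 0.523 against 0.517). Embryo 57 averaged higher with 80-89 h (0.564 against 0.520). Pairs of embryos at 90-99 h averaged 0.611 (36 pairs), and pairs across both groups averaged 0.404. These correlations are descriptions over genes of shared libraries and also move with depth.

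Between 70-79 h and 90-99 h, 563 of 5205 tested genes differed. Most genes that rose were at a few CPM or fewer before (CPM is a model's share of transcript counts, scaled to 1000000), and most genes that fell had been abundant. At 90-99 h 439 genes were higher (8.43% of those tested) and 124 were lower (2.38%), in edgeR's quasi-likelihood test with a Benjamini-Hochberg adjusted p under 0.05. The changes were large. The median log2 change was 5.66 among the genes that rose and -4.40 among those that fell, against 0.13 over all tested genes. Both list medians were the same with genes at 0 counts put at their lower bound. More than a 4-fold change was fitted for 418 of the 439 and for 113 of the 124, and more than 16-fold for 335 and 67.

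The number of falls depends on which genes were admitted to the test. The default filter asked for 13.3 CPM in at least 8 embryos. A gene present only at 90-99 h could pass in 8 of 9 embryos, whereas a gene present only at 70-79 h had to pass in all 8, embryo 55 included. With a filter on the mean over all 17 embryos, which does not look at the groups and was chosen after seeing the data, 628 genes were higher and 493 lower. With no filter 764 were higher and 645 lower. Without embryo 55 the default filter gave 500 higher and 202 lower. The split also moved with the tool, to 545 higher and 278 lower in DESeq2. The median change of all genes was -0.05 with RLE scaling factors and -0.03 in DESeq2. Of the 439 genes, 437 were also higher under the filter on the mean, and of the 124, 123 were also lower.

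**Figure D1:**
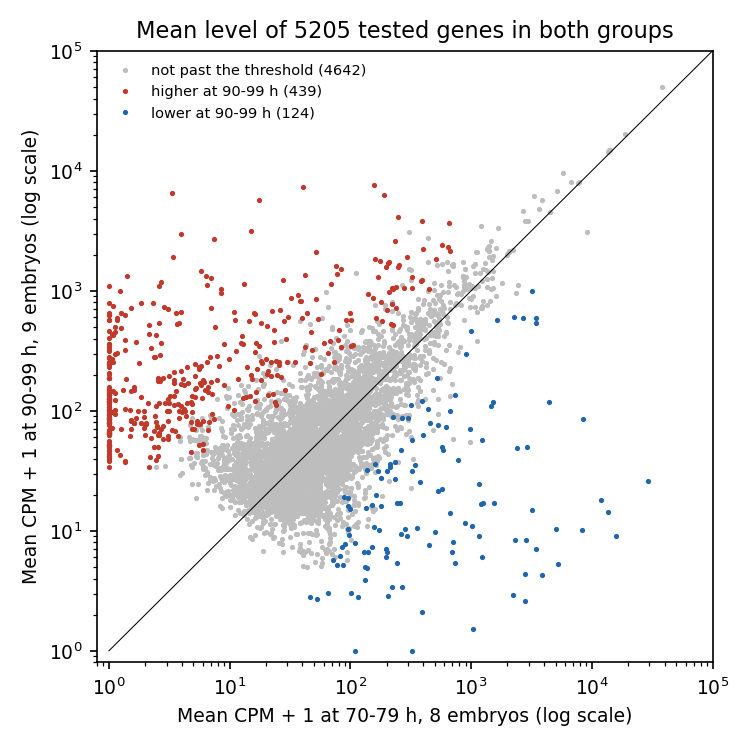
Mean CPM + 1 of each of the 5205 tested genes at 70-79 h (x axis, 8 embryos) and 90-99 h (y axis, 9 embryos), both on log scales, with the line of equal levels. The 439 genes that rose (red) spread to the left, 117 of them at 0 CPM at 70-79 h, and the 124 that fell (blue) have a median of 366 CPM at 70-79 h and 14.8 CPM at 90-99 h.

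At 70-79 h, 174 of the 439 genes that rose had a mean under 1 CPM and 60 had 50 CPM or more. These 174 are also all of the 5205 tested genes under 1 CPM there (3.34%): a gene so low at 70-79 h passed the filter through the 90-99 h group alone, so that its direction was set by the filter. Over all 439 genes that rose, the median of the mean CPM was 2.09 at 70-79 h and 178 at 90-99 h. At 90-99 h 53 of the 439 exceeded 1000 CPM, and none had done so at 70-79 h. A count in every one of the 9 late embryos was found for 372 of the 439, and 117 of the 439 had no count in any of the 8 earlier embryos. Both held for 83. The 117 are also all of the tested genes with no count at 70-79 h, since each is among the 174. Such a gene passed the filter only with 13.3 CPM in at least 8 of the 9 late embryos. The filter and the choice of genes therefore favour all 3 of these counts. The ranges of the groups did not overlap in 291 of the 439, with every late embryo above every earlier one. This is 66.3%, against 6.05% of all tested genes in that direction. The choice of these genes for a difference between the same embryos favours such ranges, so this is a description.

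Each earlier embryo had counts on 69 to 221 of the 439 genes, and each late embryo on 404 to 439. At like depth, embryo 52 (73 h, 306329 counts) had counts on 69 of them and embryo 77 (98 h, 369809 counts) on 404. The highest number at 70-79 h, 221, was in embryo 57 (78 h), the last kept of its window. Over all models, the lowest number with counts in a kept embryo was 3387 at 70-79 h and 4439 at 90-99 h. The 439 genes were chosen for higher levels in these late embryos, and the filter favours counts there. The numbers of this paragraph are therefore a description.

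The median of the genes that fell was 366 CPM at 70-79 h and 14.8 CPM at 90-99 h, and 37 of them exceeded 1000 CPM at 70-79 h, none at 90-99 h. Among the 124, 2 had no count in any of the 9 late embryos, a number that the filter holds down, since such a gene had to pass in all 8 earlier embryos. All 8 earlier embryos had counts for 80 of them, which the filter and the choice of genes favour. In 22 of the 124 (17.7%) the ranges did not overlap, against 0.5% of all tested genes in that direction. The choice of genes favours this here too. Leaving out embryo 55 raised the number from 22 to 68. Over all 12746 models, with no filter, 86 had counts in all 9 late embryos and in none of the 8 earlier ones. The reverse pattern was found in 2, or in 34 without embryo 55.

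The shift took up a large part of the RNA measured. The 124 genes that fell held a median of 21.1% of all transcript counts at 70-79 h, with a range of 3.97% to 25.5%, and 0.734% at 90-99 h, with a range of 0.577% to 1.08%. The lowest embryo of the earlier window was embryo 55, and the next lowest, embryo 57, had 11.8%. The 439 genes that rose held 1.15% to 2.68% at 70-79 h (median 1.37%) and 17.2% to 23.2% at 90-99 h (median 21.4%). The groups did not overlap in either share. These shares are of genes picked in the same embryos and carry no test. In whole embryos, fewer cells of a type and less RNA per cell cannot be told apart.

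The embryos of other hours, which did not enter the contrast, place the shift in time. In the 13 embryos of 47-59 h the falling genes held 4.27% to 6.43% of counts. At 62, 63, 64 and 69 h they held 5.89%, 7.68%, 9.20% and 16.6%. At 71 and 77 h the values were 21.9% and 20.4%, and at 78 and 81 h they were 11.8% and 2.72%. The genes that rose held 1.48% to 2.16% at 47-59 h and 1.24% to 1.72% at 62-69 h. At 77 and 78 h they held 1.53% and 2.68%, and at 81, 84, 85 and 87 h they held 10.1%, 13.6%, 16.3% and 20.5%. With 1 embryo per hour, an hour's value has no replicate.

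**Figure D2:**
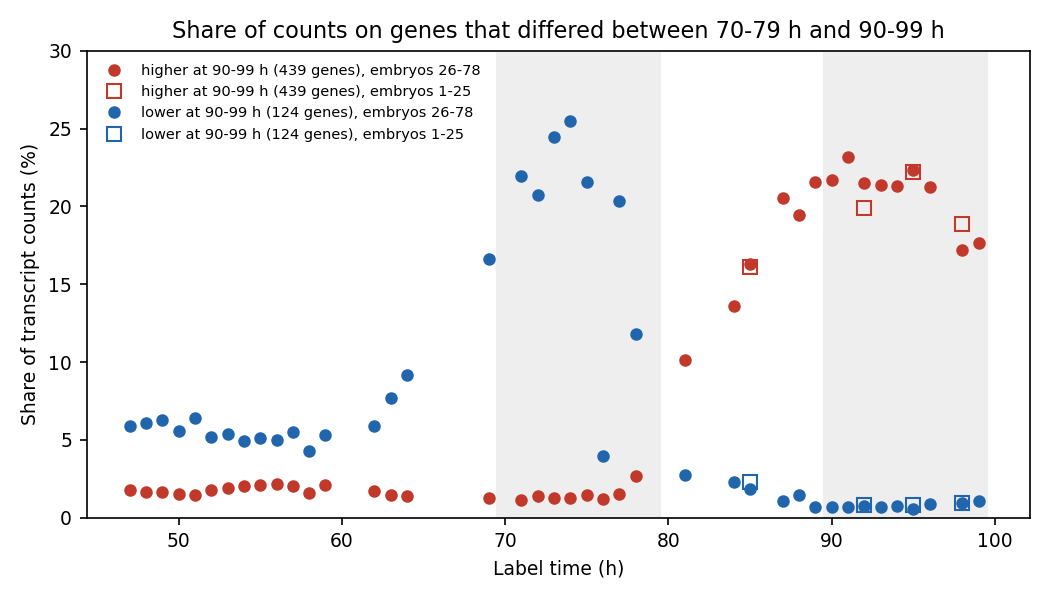
Share of each embryo's transcript counts (percent, y axis) on the 439 genes that rose (red) and the 124 that fell (blue), by label time (x axis, hours), 1 point per embryo. Filled circles are embryos 26-78, open squares embryos 1-25, and grey bands mark both groups of the contrast. Blue points climb to over 20% at 71-77 h, apart from embryo 55 at 3.97%, and red points leave the baseline after 78 h and lie between 21.2% and 23.2% at 89-96 h in embryos 26-78.

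Each step on either side of 80-89 h was also tested. The test was chosen after seeing the data, and both steps use the 6 kept embryos of 80-89 h. From 70-79 h to 80-89 h, 691 of 7715 genes were higher (8.96%) and 167 lower (2.16%). From 80-89 h to 90-99 h, 0 were higher (0.0%) and 2 lower (0.0259%), while 323 genes had an unadjusted p under 0.05 (edgeR for both steps). The first step compares 8 embryos with 6 and the second 6 with 9. Inside the 80-89 h window the rising genes went from 10.1% of transcript counts at 81 h to 21.6% at 89 h. That spread enters both tests, so few calls at the second step do not show that levels had stopped changing. Without embryo 55 the counts were 650 and 180 at the first step and 0 and 6 at the second, and with embryos over 500000 counts they were 608 and 118, then 0 and 0. RLE factors moved the median change of all genes at the first step from 0.19 to -0.20 and gave 624 higher and 206 lower. A slope per hour over all 23 embryos of 70-99 h rose in 523 genes (6.78%) and fell in 273 (3.54%).

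The 6 embryos of 80-89 h also place single genes. On mean CPM, a rising gene had covered a median of 70.4% of the distance between both group means, and a falling gene 96.1%. For the rising genes, the embryos in order of hour stood at 17.1%, 36.8%, 47.3%, 97.7%, 83.3% and 95.5%. For the falling genes the same embryos stood between 93.3% and 101%. The order of both lists depends on the scale: on mean log2(CPM + 1) it turned to 84.8% for a rising and 77.3% for a falling gene. On that scale the rising genes stood at 66.5%, 80.3% and 86.5% in the 3 embryos of 81-85 h and at 100.04% to 104% in those of 87-89 h, and the falling genes between 50.3% and 109%. On both scales the 3 embryos of 87-89 h stood above those of 81-85 h for the rising genes. The embryo at 85 h is the shallowest of these 6, with 286137 counts, and low genes are more often at 0 in it.

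The rising genes were divided by hour on the log2 scale. In 282 of the 439, at least 50% of the distance had been covered at 81-85 h. In another 149 it had not at 81-85 h but had at 87-89 h, and in 8 neither was so. The division was drawn after seeing these embryos, so the levels of both sets in them follow from it and are a description. On mean CPM the same division gives 183, 197 and 59 genes. The genes on either side of it lie at 49.7% and 50.3%, and 48 lie within 10 points of it. The earlier genes had medians of 3.00, 139 and 186 CPM in the windows of 70-79, 81-85 and 90-99 h. The later genes had 0.677 and 10.5 CPM in the first 2 of these, 118 CPM at 87-89 h and 148 CPM at 90-99 h. As shares of counts, the earlier genes held 9.34%, 15.3% and 16.8% at 81, 85 and 87 h and a median of 15.4% in the late group. The later genes held 0.586%, 0.578%, 3.33% and 4.72% at 81, 85, 87 and 89 h and a median of 5.23% in the late group. Both named rising models below belong to the earlier genes.

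Embryos 1-25, another run, took no part in drawing the division. Its kept late embryos are embryo 20 (85 h, 259319 counts), embryo 22 (92 h), embryo 23 (95 h) and embryo 25 (98 h). In embryo 20 the earlier genes had a median of 141 CPM and 231 of 282 had counts (81.9%). The later genes had a median of 0 CPM, and 68 of 149 had counts (45.6%), against 57.3% of all tested genes. At 92-98 h the medians were 165 and 159 CPM. The later genes held 1.31% of counts at 85 h and 4.99%, 6.21% and 3.25% at 92, 95 and 98 h. The earlier genes held 14.3% at 85 h and 14.5%, 15.3% and 10.7% at those hours.

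**Figure D3:**
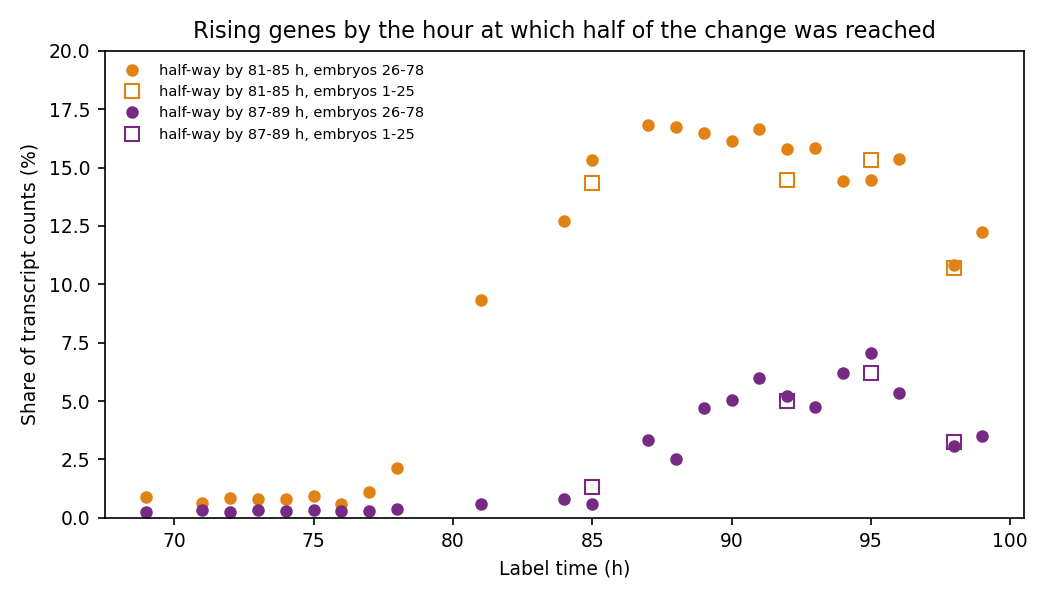
Share of transcript counts (percent, y axis) by label time (x axis, hours) for the 282 rising genes that had covered at least 50% of the log2 distance at 81-85 h (orange) and the 149 that had by 87-89 h (purple), 1 point per embryo. Filled circles are embryos 26-78 and open squares embryos 1-25. The orange points are at 9.34% at 81 h, whereas the purple points are still under 1% at 85 h in embryos 26-78 and lie between 3.09% and 7.04% at 90-99 h.

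Both lists were also read in the 4 kept late embryos of the other run. The 439 rising genes held 16.1% of counts at 85 h and 19.9%, 22.2% and 18.9% at 92, 95 and 98 h in embryos 1-25, and the 124 falling genes 2.33% at 85 h and 0.793%, 0.821% and 0.976% at the other 3 hours. At 92-98 h all 3 embryos lay within the range of the 90-99 h group in both shares, whereas the embryo of 85 h lay outside it in both. By mean log2(CPM + 1) at 92-98 h, 433 of the 439 rising genes and 110 of the 124 falling genes were nearer to the 90-99 h mean of embryos 26-78 than to the 70-79 h mean (98.6% and 88.7%), against 67.1% of all tested genes. A contrast of 80-86 h with 92-98 h within embryos 1-25 rests on 1 embryo against 3, with the lone embryo assumed to vary like the others. edgeR called 0 of 8888 genes there, and 1224 had an unadjusted p under 0.05. The median fitted change over all genes was 5.58 there, and the lone embryo had counts on 4378 models against 7381 to 9327 in the 3 others.

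Levels of the rising genes at earlier hours ranged widely. The mean was under 1 CPM at 47-59 h, 60-69 h and 70-79 h alike in 136 of the 439, and in 108 of these also in the 15 kept embryos of the first 18 h (embryos 1-16). Over all 5205 tested genes the numbers are the same, 136 and 108, since genes so low at 70-79 h were tested only through the late group. At least 50 CPM was reached in 64 rising genes at 47-59 h (14.6%, against 46.6% of all tested genes) and in 74 in the first 18 h (16.9%, against 43.4%). The rising genes held 0.761% to 8.06% of counts in those 15 embryos, with the highest at 12 h. Within embryos 1-25, the level at 92-98 h was over 4 times that of the first 18 h in 368 rising genes (83.8%), against 32.0% of all tested genes, on CPM + 1. The highest of the 5 window means from 47 to 99 h was at 90-99 h in 309 rising genes (70.4%, against 26.5% of all tested genes) and at 80-89 h in 127 (28.9%, against 20.7%), and the choice of genes favours these windows. In 43 genes the 80-89 h mean was over 1.5 times that of 90-99 h.

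The window with the highest mean was 70-79 h for 66 of the 124 falling genes (53.2%, against 13.5% of all tested genes). It was 60-69 h for 27 (21.8%, against 13.3%) and 47-59 h for 29 (23.4%, against 26.1%). The choice of these genes for a higher level at 70-79 h favours a peak there, so these counts are a description. In 55 the mean at 70-79 h was over 4 times both that of 47-59 h and that of 90-99 h (44.4%, against 1.58% of all tested genes). In 69 of the 124 the level at 70-79 h was at most 4 times that at 47-59 h, which held for 86.6% of all tested genes. At 47-59 h 13 were under 1 CPM (10.5%, against 8.45% of all tested genes). The median over genes was 91.4, 196 and 366 CPM in the windows of 47-59, 60-69 and 70-79 h. In embryos 1-25 it was 2.47 CPM over the first 18 h, and 25 of the 124 reached 50 CPM there (20.2%, against 43.4% of all tested genes). The 60-69 h window holds 4 kept embryos.

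Of the genes that rose, 278 met the rule for naming, and the 2 with the largest fitted rise are given. HD_v1_tr_00305 had no count in any of the 8 embryos of 70-79 h. At 90-99 h it had counts in 9 of 9, from 143 to 1506 CPM with a median of 714 CPM (mean 784 ± 462, SD, n = 9). Pooled over the late embryos it was at least 2394-fold higher than a floor of 3 counts summed over the earlier group. The fitted log2 change was 12.35, with an SE of 0.92 and an edgeR adjusted p = 3.92e-07. The groups did not overlap. In the 6 embryos between them it stood, in order of hour, at 45.5, 260.9, 294, 544, 561 and 1045 CPM. In embryos 1-25 it was at 46.3 CPM at 85 h and at 914, 473 and 415 CPM at 92, 95 and 98 h. Before 70 h, 1 of 13 embryos of 47-59 h had counts, at 29.5 CPM, and 1 of 4 at 60-69 h had a single count.

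HD_v1_tr_01927 also had no count at 70-79 h and was counted in 9 of 9 embryos at 90-99 h, from 74.8 to 1767 CPM with a median of 462 CPM (mean 630 ± 570, SD, n = 9). This was at least 2083-fold higher than the same floor, with a fitted log2 change of 12.09, an SE of 1.18 and an edgeR adjusted p = 5.40e-06. The groups did not overlap. In the 6 embryos of 80-89 h it stood, in order of hour, at 296, 692, 877, 1021, 570.4 and 833 CPM. At 60-69 h 2 of 4 embryos had a single count each. With embryos 58 and 76 added, the call was lost (log2 change 2.62, edgeR adjusted p = 0.461). The highest late values, 1140, 1767 and 1033 CPM, were at 90, 91 and 92 h, and the lowest, 74.8 CPM, at 99 h. In embryos 1-25 it was at 663 CPM at 85 h and 282.8, 169 and 17.2 CPM at 92, 95 and 98 h.

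Of the genes that fell, 22 met the rule, and the 2 with the largest fitted fall are given. HD_v1_tr_06445 had counts in 8 of 8 embryos at 70-79 h, from 15.7 to 686 CPM with a median of 307 CPM (mean 322 ± 242, SD, n = 8). No count was found in any of 9 late embryos, so that the earlier level was at least 611-fold higher than a floor of 3 counts summed over the late group. The fitted log2 change was -11.04, with an SE of 1.12 and an edgeR adjusted p = 1.20e-05. The groups did not overlap. The lowest value of the earlier group was at 78 h and the next, 53.1 CPM, in embryo 55. It was already present at 47-59 h, with a median of 65.3 CPM, and at 60-69 h (median 297 CPM). In the first 18 h, 3 of the 15 kept embryos (embryos 1-16) had counts, up to 40.3 CPM. At 81 h it had 19.8 CPM, and the 5 later embryos of 80-89 h had none.

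HD_v1_tr_12654 was counted mainly at 71-78 h. It had no count in 12 of 13 embryos at 47-59 h and in 3 of 4 at 60-69 h, where embryo 48 (69 h) had 27.9 CPM. At 70-79 h it was found in 8 of 8, from 13.3 to 4232 CPM with a median of 248 CPM (mean 1028 ± 1510, SD, n = 8). The highest values, 4232 and 2336 CPM, were at 77 and 78 h, and the lowest was in embryo 55. At 81 and 85 h it had 3.67 and 17.5 CPM (8 and 5 counts), and at 90-99 h 2 of 9 embryos had counts, up to 3.56 CPM. The fitted log2 change was -10.53, with an SE of 1.35 and an edgeR adjusted p = 7.77e-06. Embryo 55 put it exactly at the limit of the filter, and it was tested in 9 of the 17 fits that left out 1 embryo.

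**Figure D4:**
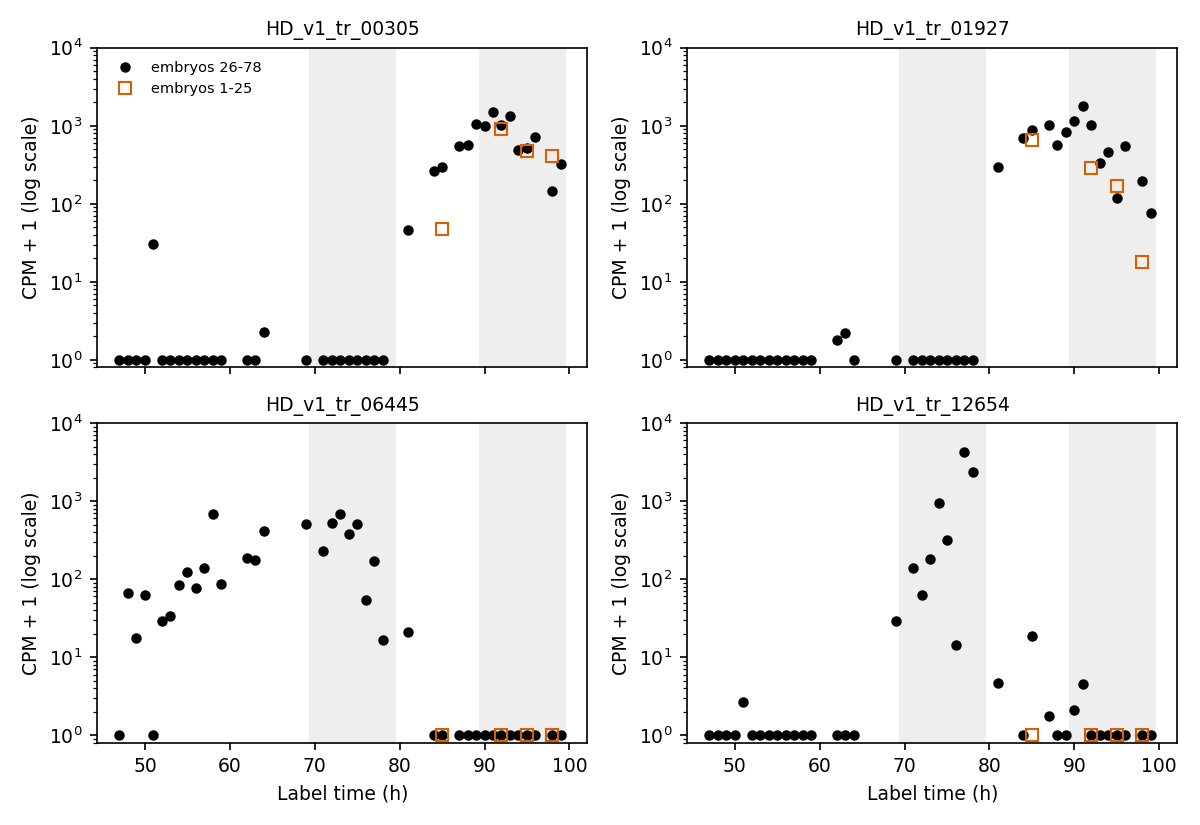
CPM + 1 (log scale, y axis) of the 4 named transcript models by label time (x axis, hours), 1 point per embryo, with grey bands for both groups of the contrast. Black circles are embryos 26-78 and orange squares embryos 1-25. HD_v1_tr_00305 and HD_v1_tr_01927 are at 0 in all 8 embryos of 70-79 h, and HD_v1_tr_06445 and HD_v1_tr_12654 are at 17.5 CPM or less in every embryo of 84 h and later.

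Most of the 50 most abundant genes were exchanged as well, which also held from 47-59 h to 70-79 h. Of the 50 genes with the highest mean CPM at 70-79 h, 18 were among the 50 highest at 90-99 h, against 37 shared between 80-89 h and 90-99 h. Among the 50 highest at 70-79 h, 20 were genes that fell, against 2.38% of all tested genes. Among those at 90-99 h, 17 were genes that rose, against 8.43%. These sets were picked in the same embryos, which favours such overlap, so the counts are a description. The 50 of 70-79 h held a median of 38.5% of counts at 70-79 h and 19.9% at 90-99 h. The model with the highest mean CPM in both groups, HD_v1_tr_11826, named after its values were seen, did not pass the threshold (log2 change 0.32, edgeR adjusted p = 0.56). It was the most abundant model in 9 of 9 late embryos and in 3 of 8 earlier ones.

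Counts were spread more evenly over genes in the later group. The 10 most abundant genes of an embryo took from 14.6% to 23.7% of its counts at 70-79 h (20.3% ± 3.03, SD, n = 8) and from 14.0% to 19.5% at 90-99 h (16.6% ± 1.63, SD, n = 9). The difference was -3.69 percentage points (2-sided exact permutation p = 0.00716, adjusted over 3 measures 0.0215). For the 100 most abundant it was 48.1% ± 4.90 and 39.6% ± 2.09 (2-sided exact permutation p = 0.00107, n = 8 and 9). The groups overlap in both, and embryo 55 had the lowest value of its window, 14.6% and 37.5%. The 6 embryos of 80-89 h had 39.8% ± 1.64 (SD) on the 100 most abundant.

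Neither the number of genes detected nor the amount of RNA against the spike-ins passed the threshold. Thinned to 286137 counts, the earlier embryos showed 5661 ± 1476 genes (SD, n = 8) and the later ones 6037 ± 793 (SD, n = 9), a difference of 375.6 (2-sided exact permutation p = 0.512, adjusted 0.643). The 3 lowest values at 70-79 h were in embryos 50, 51 and 52, which also had the fewest counts of their group. Transcript counts per spike-in count, as log2, were 2.54 ± 0.30 (SD, n = 8) and 2.48 ± 0.19 (SD, n = 9), with a difference of -0.06 (2-sided exact permutation p = 0.643). This reads as RNA content if every reaction received the same amount of spike-in, which the labels do not state.

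**Figure D5:**
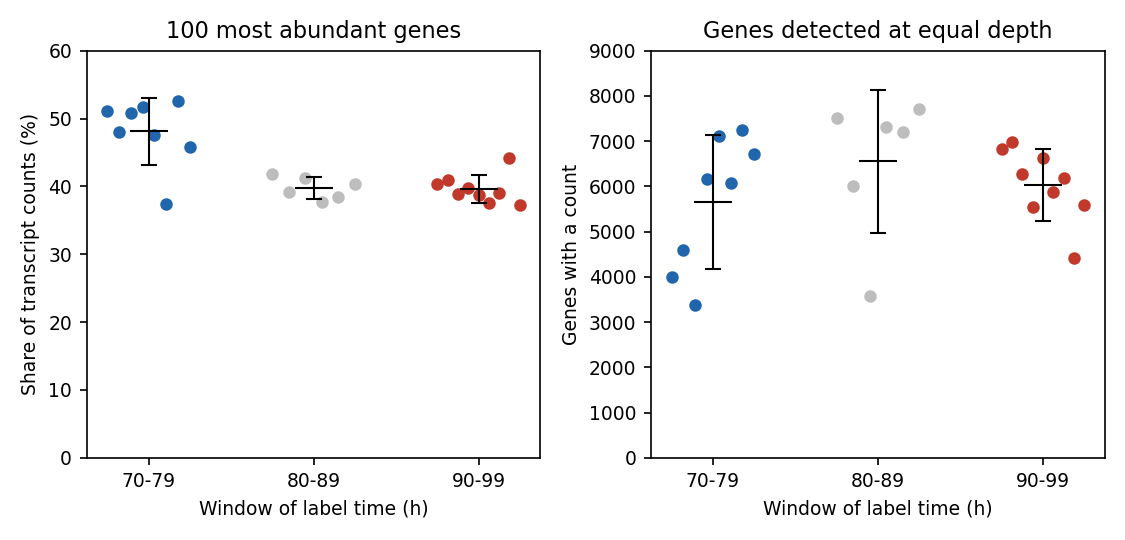
Share of counts on the 100 most abundant genes (left, percent) and genes detected at 286137 counts (right, number) for each kept embryo of 70-79 h (blue), 80-89 h (grey) and 90-99 h (red), with mean and SD in black and embryos in order of label time. The share is 48.1% at 70-79 h and 39.6% at 90-99 h, with 1 low embryo in the first window, whereas the numbers of genes overlap.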

How the data were processed

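Single-embryo CEL-Seq libraries were used as the authors deposited them, as raw read counts per transcript model. CASAVA 1.8, Bowtie2 2.1.0 and HTSeq 0.5.4p3 are named in the submitters' processing notes. Neither genome build nor annotation is given in the sources used here. Counts on 12746 transcript models, each treated as a gene, made up the library sizes. They leave out 92 ERCC spike-ins and 5 summary rows. In the kept embryos of both groups reads that did not align made up 42.9% to 58.3% of all reads. No molecular identifiers enter the counts, so floors cover counting error only.

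Tests used edgeR 4.0.16 (R 4.3.3) with TMM factors, the default filter and the quasi-likelihood F-test on the 17 embryos of both groups, adjusted over all tested genes. The code was tested on simulated data. For detected genes, embryos were thinned 20 times to 286137 counts. Single measures used exact permutation over embryos. Python 3.11.15, scipy 1.17.1, and, for alternative tests, limma 3.58.1 and DESeq2 1.42.0 were also used. The comparison, its members and the lists were chosen with earlier results of these data known. Named IDs had the largest fitted changes among genes past the threshold with at least 50 CPM on average and a count in every embryo of the higher group, and with ranges that do not overlap.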

Additional observations from a re-analysis of the deposited data

Results flagged for a closer look

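Values far from the rest of their window were looked for in 47 sets of 4 to 9 kept embryos, and 7 were found, where chance gives about 1 in 20. Several are a single embryo with counts among embryos at 0. Embryo 57 (78 h) had 2.68% of counts on the genes higher at 90-99 h, against 1.15% to 1.53% in the 7 others. Embryo 55 (76 h) had 7.80% of all reads outside transcript models, against 4.68% to 5.98%. In embryo 48 (69 h) the ratio of transcript to spike-in counts was 6.51, and the 3 others of 60-69 h lay at 4.42 to 4.62. It alone of these 4 had HD_v1_tr_12654, at 4.85 on the scale of log2(CPM + 1). On that scale embryo 43 (64 h) had HD_v1_tr_00305 at 1.18 with the 3 others at 0, and embryo 60 (81 h) had HD_v1_tr_06445 at 4.38 with the 5 others at 0. Embryo 70 (91 h) had HD_v1_tr_12654 at 2.19, against at most 1.06 in the 8 others.

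The 3 embryos left out carry counts on the same genes. Leaving aside HD_v1_tr_06538, embryo 58 (79 h) had 14.0% of its counts on the genes that rose and 2.21% on those that fell. Embryo 76 (97 h) had 16.1% and 0.892%. Embryo 49 (70 h) had 0.0557% and 0.591%, each from 5 genes.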

How the results depend on the processing

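Of 243 values recomputed under alternatives, 224 kept their direction and their side of the threshold or stayed within 1.5 times the count. Genes higher at 90-99 h numbered 764 with no filter, 838 in a fit over 5 windows, 791 with limma and 237 with embryos 58 and 76 added. Genes lower numbered 645, 800, 241 and 77 in the same order, 278 with DESeq2, and 493 and 505 with a filter on mean CPM over all embryos, with and without embryo 55. More genes were tested with no filter, in the fit over 5 windows and with a filter on mean CPM (7579 and 7382, against 5205). Fewer were tested with embryos 58 and 76 added (4641). The cause of these differences was not tested. Leaving out 1 embryo gave 323 to 542 higher and 98 to 202 lower, the last without embryo 55. The position of the falling genes at 80-89 h, 96.1% on mean CPM, moved to 77.3% on mean log2(CPM + 1). Genes falling by slope numbered 125 without the 80-89 h embryos. The step into 90-99 h gave 6 genes without embryo 55 and 0 with embryos over 500000 counts. With embryos 58 and 76 added, the difference in the 10 most abundant genes was -4.28 points (exact permutation p = 0.42), that in log2 counts per spike-in turned to 0.0975, and HD_v1_tr_01927 no longer passed. Without 1 embryo at a time these differences ran from -4.50 to -3.20 points and from -0.117 to -0.00151, and that in detected genes from 50.1 to 603. Embryos 1-25 gave 0 genes without any 1 of 3 late embryos; without embryo 20 no fit was possible. Thresholds on depth left the contrast as it was when doubled, since no kept embryo lies below.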

Other observations

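Embryos 59, 61 and 62, labelled 80, 82 and 83 h, were too shallow for the comparison, with 38558 to 59293 counts, of which HD_v1_tr_06538 took 38.3% to 44.4%. Leaving that model aside, the genes that rose by 90-99 h held 9.99%, 15.7% and 15.9% of their counts, against 10.4% at 81 h and 13.9% at 84 h in the kept embryos. The genes that fell held 1.76%, 1.08% and 1.08%. These embryos fall between 78 and 84 h, where single kept embryos carry the timing of the shift. Other left-out embryos of 80-86 h held less on the genes that rose, on the same basis. Embryo 65 (86 h, 23135 counts) held 0.975%, against 16.7% and 20.8% in kept embryos 64 and 66 (85 and 87 h). In embryos 1-25, embryos 17, 18, 19 and 21 (80, 82, 83 and 86 h) held 8.39%, 2.99%, 4.93% and 2.50%. The left-out embryos thus do not all go with the kept ones.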
